A study of Homo sapiens with 6 samples.

Results

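The genes described here are 58 factors that build ribosomes in the nucleolus, followed in 22Rv1 cells, an established human prostate cancer cell line, after knockdown of the Mediator subunit MED12. They were chosen by name as proteins of the box C/D and box H/ACA particles, the small-subunit processome and large-subunit assembly, and were placed here in 6 steps. All 58 were among the 62703 genes counted and among the 17901 that passed the expression filter, with no member lost. The lowest count of any member in any library was 23.

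Full-transcriptome RNA-seq of poly(A) RNA was performed on 6 libraries to examine the role of MED12 in cells that resist enzalutamide without prior exposure. Cells received 25 pmol of siRNA 24 h after seeding, either a non-targeting pool (siCtrl, n = 3) or a pool against MED12 (siMED12, n = 3), carried by Lipofectamine RNAiMAX. Fresh medium was given 6 h later, and RNA came from day 3. Both groups share the parental line, the transfection reagent and the harvest day, and each group rests on 1 siRNA pool. The study's methods speak of biological replicates for its experiments in general, while the labels do not tie these libraries to separate cultures, so p-values measure the spread between these libraries. A legend in the study calls a heat map of these cells batch-corrected and does not name the batch.

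Ribosomes are assembled around a long ribosomal RNA precursor that RNA polymerase I transcribes in the nucleolus. Small nucleolar ribonucleoproteins of the box C/D and box H/ACA classes methylate and pseudouridylate it, the processome folds and cuts the part that becomes the small subunit, and a separate series of particles matures the large subunit before export. Cancer cells that divide quickly depend on this supply, and many genes of the pathway carry the E-box CACGTG near their start, a sequence bound by MYC and related transcription factors.

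MED12 itself was 67.8, 77.7 and 72.6 CPM in the siCtrl replicates and 23.9, 15 and 30.1 CPM in the siMED12 replicates, where CPM are the counts of a gene scaled to a common library size after TMM adjustment. All siMED12 libraries lay below all siCtrl libraries. Its log2 fold change of -1.66 (SE 0.23) passed edgeR's quasi-likelihood test, both with treatment as the sole term (unblocked, adjusted p 0.0314) and when the replicate number entered as a block (blocked, adjusted p 1.52e-16). Depth lay between 16136699 and 17012788 counts, and the share of mitochondrially encoded counts between 4.43% and 10.1%, higher in replicate 3 of both groups. All 10 prostate luminal markers were above 1 CPM, summing to 3273 to 3443 CPM under siCtrl and 2792 to 2971 CPM under siMED12. Of 9 markers of other cell types, 2 were above 1 CPM (COL1A1 and LUM), CD3E was at 0, and the sums were 25.4 to 39.1 CPM and 26.1 to 41.8 CPM.

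The ribosome biogenesis factors were lower together after MED12 knockdown. Summed over the 58 genes, the siCtrl replicates held 7429, 8069 and 7095 CPM and the siMED12 replicates 5597, 5622 and 5426 CPM. The groups did not overlap, and the sum changed by -24.7%, -30.3% and -23.5% in the pairs of libraries with the same replicate number. In bulk RNA, fewer cells that express these genes and less RNA per cell cannot be told apart.

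In the unblocked fit all 58 members had a log2 fold change below 0, with a median of -0.42 against 0.02 over all 17901 genes tested. Their values ran from -0.88 for LYAR to -0.08 for NOP10, with quartiles of -0.53 and -0.35. The mean CPM of 32 members decreased by more than 25%. Within the pairs, 57, 58 and 58 members were lower, with median changes of -24.4%, -28.8% and -21.9%. Leaving out 1 library at a time turned the direction of 1 member, NOP2, and moved the log2 fold change of 12 by over 1.5 times in at least 1 of the 6 fits: DDX18, DDX52, DDX56, EMG1, LAS1L, NOC3L, NOC4L, NOP10, NOP2, NOP56, UTP15 and WDR74. Pair 2 showed the largest decrease for 38 members, pair 3 for 12 and pair 1 for 8.

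Without the replicate block, 6 of 58 members (10.3%) fell at an adjusted p below 0.05 by edgeR's quasi-likelihood test, beside 0.413% of all genes tested. They were LYAR, BOP1, MYBBP1A, NOP16, FBL and DKC1. No member rose by that test, by the DESeq2 Wald test or at an unadjusted p below 0.05 (0 of 58 each), beside 0.151%, 2.29% and 7.65% of all genes. At an unadjusted p below 0.05, 44 members (75.9%) were lower, beside 7.93% of all genes. The DESeq2 Wald test called 28 members lower (48.3%), beside 3.42% of the 14428 genes to which it gave an adjusted p. When 1 library was left out, the expression filter was applied again to the remaining libraries. The fits without siCtrl replicate 1 or 2 or siMED12 replicate 1 or 2 called 0 genes in either direction and so 0 members. Without siMED12 replicate 3, 29 genes were lower and 8 higher with 0 members among them, and without siCtrl replicate 3, 37 were lower and 5 higher with 2 members. The members' median log2 fold change lay between -0.47 and -0.37 in these 6 fits.

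With the replicate number as a block, 54 members (93.1%) fell and none rose by edgeR, beside 16.2% of all genes that fell and 17.1% that rose. The 4 members outside that count were NOP10, DDX52, UTP15 and NOP2. The median SE of a member's log2 fold change was 0.12 without the block and 0.06 with it. In 43 members (74.1%) the 3 siMED12 libraries all lay below the 3 siCtrl libraries, beside 10.9% of all genes. In 57 members (98.3%) siMED12 was lower in all 3 pairs, beside 27.0% of all genes, and the exception was NOP10.

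**Figure D1:**
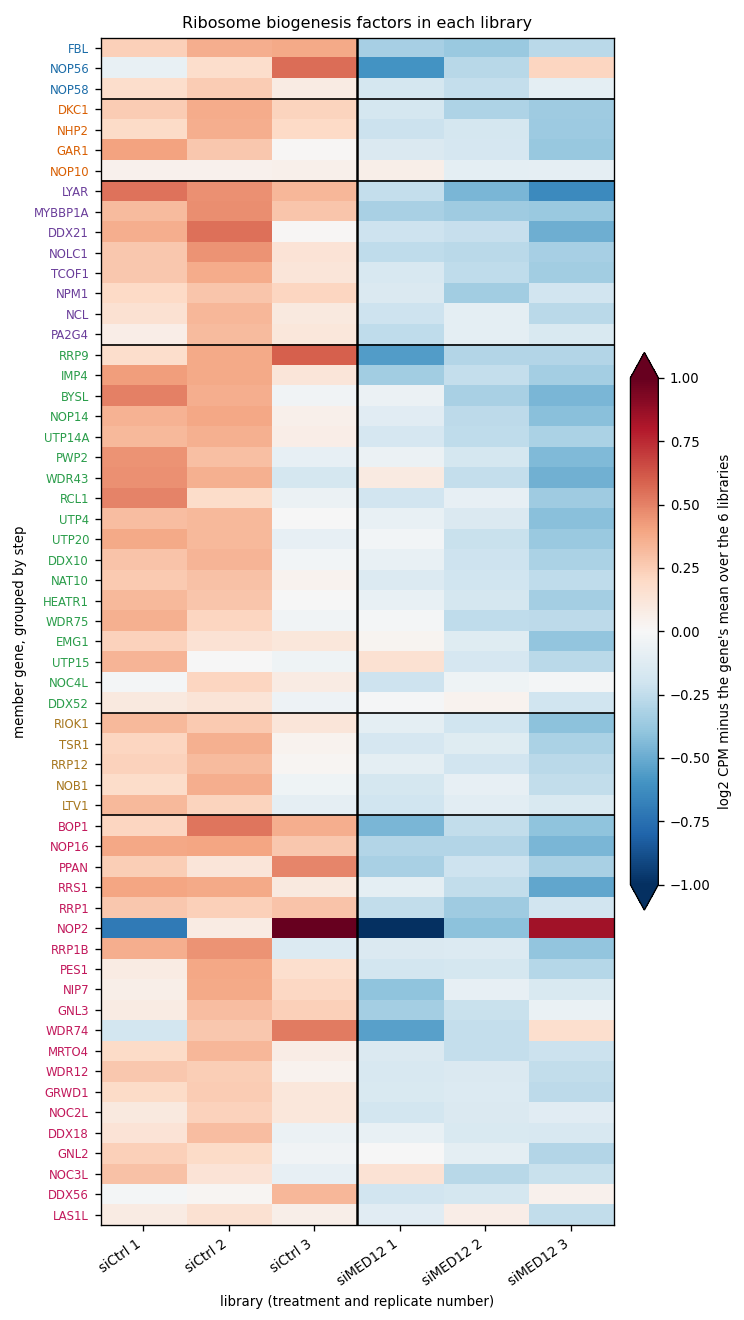
Heat map of the 58 members (rows, grouped by the 6 steps) in the 6 libraries (columns). Colour is log2 CPM minus the gene's mean over the libraries. In 57 members siMED12 is below siCtrl in all 3 pairs with the same replicate number, beside 27.0% of all genes tested. The groups do not overlap in 43 members, beside 10.9% of all genes, and overlap in 15.

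**Figure D2:**
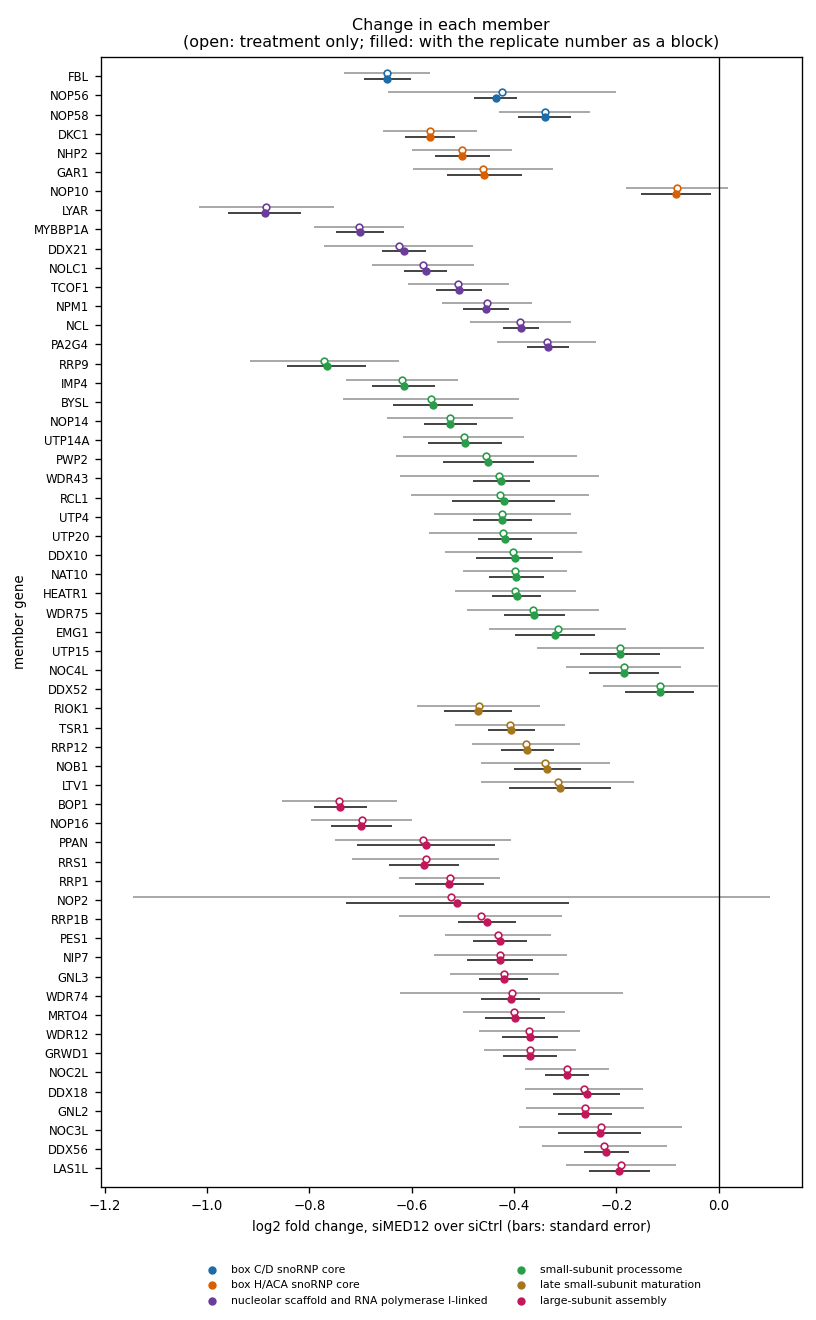
Log2 fold change of siMED12 against siCtrl for each member, by step, with its SE as a bar. Open points are from the unblocked edgeR fit and filled points from the blocked fit. All 58 members lie below 0 in both fits, beside 8524 (unblocked) and 8504 (blocked) of the 17901 genes tested. Unblocked values run from -0.88 (LYAR) to -0.08 (NOP10). In that fit 6 members are lower at an adjusted p below 0.05, beside 0.413% of all genes.

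The start regions of 6 members are shown, because together they span the range of changes and differ in the CACGTG word. Of the 6 members that fell without the block, FBL, MYBBP1A and LYAR carry it, DKC1 and NOP16 have none in this window, and BOP1 had no window, while NOP10, the member with the smallest change, has it at 2 places. Each window runs from 250 bases before to 50 after the RefSeq start on GRCh38.p14, written 5′ to 3′ on the gene's own strand, with CACGTG in capitals. It begins 7 bases after the start in FBL, 28 after it in MYBBP1A, 64 before it in LYAR, which has another listed start without it, and 170 and 11 before it in NOP10.
FBL (chr19:39846330-39846629, minus strand): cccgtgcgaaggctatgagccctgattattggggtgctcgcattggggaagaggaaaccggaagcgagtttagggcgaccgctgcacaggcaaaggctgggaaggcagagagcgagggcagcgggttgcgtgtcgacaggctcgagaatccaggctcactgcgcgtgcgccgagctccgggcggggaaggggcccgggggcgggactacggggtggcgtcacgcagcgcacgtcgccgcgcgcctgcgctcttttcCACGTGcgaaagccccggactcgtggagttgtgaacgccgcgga
MYBBP1A (chr17:4555335-4555634, minus strand): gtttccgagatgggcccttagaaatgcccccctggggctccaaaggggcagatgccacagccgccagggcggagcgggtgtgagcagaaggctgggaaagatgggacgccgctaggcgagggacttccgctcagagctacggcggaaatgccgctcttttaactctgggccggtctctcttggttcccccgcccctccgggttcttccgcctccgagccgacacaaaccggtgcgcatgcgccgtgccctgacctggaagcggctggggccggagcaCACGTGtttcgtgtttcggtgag
LYAR (chr4:4289972-4290271, minus strand): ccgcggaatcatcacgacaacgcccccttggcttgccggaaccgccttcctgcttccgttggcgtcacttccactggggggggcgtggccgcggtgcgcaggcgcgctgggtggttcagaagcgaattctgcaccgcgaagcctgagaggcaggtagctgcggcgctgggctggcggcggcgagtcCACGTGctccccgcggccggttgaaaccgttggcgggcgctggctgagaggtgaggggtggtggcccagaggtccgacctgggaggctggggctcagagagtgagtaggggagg
DKC1 (chrX:154762614-154762913, plus strand): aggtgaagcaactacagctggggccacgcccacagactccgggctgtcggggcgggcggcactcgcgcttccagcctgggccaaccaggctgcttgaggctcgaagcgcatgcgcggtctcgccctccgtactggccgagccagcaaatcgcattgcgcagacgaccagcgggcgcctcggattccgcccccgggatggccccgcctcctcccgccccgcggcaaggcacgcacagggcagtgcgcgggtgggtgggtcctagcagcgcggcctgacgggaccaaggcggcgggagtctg
NOP16 (chr5:176388549-176388848, minus strand): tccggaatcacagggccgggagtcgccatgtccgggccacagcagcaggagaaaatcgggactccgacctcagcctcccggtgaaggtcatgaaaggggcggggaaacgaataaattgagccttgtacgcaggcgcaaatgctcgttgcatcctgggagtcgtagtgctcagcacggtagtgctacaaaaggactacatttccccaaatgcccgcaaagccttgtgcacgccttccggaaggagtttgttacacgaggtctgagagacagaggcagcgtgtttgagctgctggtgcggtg
NOP10 (chr15:34343087-34343386, minus strand): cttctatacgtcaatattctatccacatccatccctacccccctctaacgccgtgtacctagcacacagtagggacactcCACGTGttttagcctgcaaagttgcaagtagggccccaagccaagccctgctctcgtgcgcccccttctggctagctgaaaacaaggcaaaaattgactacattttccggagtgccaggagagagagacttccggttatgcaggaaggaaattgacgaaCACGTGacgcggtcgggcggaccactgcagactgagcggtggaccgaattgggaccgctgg

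RefSeq windows were found for 49 of the 58 members. CACGTG, which reads the same on both strands, occurred in at least 1 window of 24 of them (49.0%) and of 1446 of the 11711 tested genes with a window (12.3%), and in 7.26% of all 35116 windows of that length in the table. In 22 of the 24 it began within 40 bases of the start. The related word CACGCG, searched on both strands and unable to overlap CACGTG, occurred in 14 of 49 members (28.6%) and 22.2% of tested genes. Median G+C was 64.3% in the members' windows and 64.7% in those of tested genes. The median log2 fold change was -0.44 in the 24 members with CACGTG and -0.40 in the 25 without it, with no test of the difference. The small-subunit processome held it most often, in 11 of 17 members with a window, against 6 of 16 in large-subunit assembly, 3 of 6 scaffold and polymerase I-linked members, 2 of 4 box H/ACA, 1 of 2 box C/D and 1 of 4 late small-subunit members. These matches are descriptions of the letters and were not tested for binding.

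The matches in the small-subunit processome are shown as stretches of 24 bases, because that step held the word most often and its flanking bases can be compared. Each is printed 5′ to 3′ on the gene's strand with 9 bases on either side of CACGTG in capitals (RefSeq, GRCh38.p14).
BYSL (chr6:41921518-41921541, plus strand): ttcagtcccCACGTGcgatccttc
IMP4 (chr2:130342685-130342708, plus strand): gtcctaagtCACGTGtgacattct
IMP4 (chr2:130342903-130342926, plus strand): tcccggaccCACGTGgaagcggca
NAT10 (chr11:34105605-34105628, plus strand): gcgcttgcgCACGTGctgtctacc
NOP14 (chr4:2963377-2963400, minus strand): gcggcccggCACGTGtcttagggt
PWP2 (chr21:44107391-44107414, plus strand): gctgcggcaCACGTGcgacggccg
RCL1 (chr9:4792939-4792962, plus strand): gttccaaacCACGTGgacgcgtct
RRP9 (chr3:51941895-51941918, minus strand): ttcagctgcCACGTGagttctgcg
UTP14A (chrX:129905914-129905937, plus strand): accttgggcCACGTGgaaaccagg
UTP20 (chr12:101280086-101280109, plus strand): ttttccgtcCACGTGacccactca
UTP4 (chr16:69132624-69132647, plus strand): gcgcgcgcgCACGTGgggccgggg
WDR43 (chr2:28894661-28894684, plus strand): acggacgaaCACGTGgctgcagcg
The bases on either side of the word varied among the genes. The word began 2 to 29 bases after the start in BYSL, NOP14, PWP2, RCL1, WDR43 and the second IMP4 match, and 5 to 16 before it in NAT10, RRP9, UTP20 and UTP4. The first IMP4 match and that of UTP14A lay 203 and 241 bases before it. IMP4 has another listed start without the word.

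In the box C/D particle, which methylates ribosomal RNA at the ribose, the methyltransferase FBL changed most. FBL (chr19:39834458-39846379, minus strand) was 185, 202 and 204 CPM under siCtrl and 125, 122 and 130.4 CPM under siMED12. Every siMED12 library was well below every siCtrl library. Its mean fell from 197 ± 10.3 to 126 ± 4.43 CPM (SD, n = 3 each), with a log2 fold change of -0.65 (SE 0.08, edgeR adjusted p 0.0297 unblocked and 1.53e-14 blocked). NOP56, a scaffold of the particle, was 252, 299 and 392 CPM under siCtrl and 175, 219.6 and 308 CPM under siMED12. Replicate 3 was the highest library in each group and the groups overlapped, while every pair was lower in siMED12, with changes of -30.4%, -26.6% and -21.4%. Its log2 fold change of -0.42 reached adjusted p-values of 0.414 unblocked and 6.81e-11 blocked by edgeR. The unblocked value was -0.24 without siCtrl replicate 3, -0.27 without siMED12 replicate 1 and -0.67 without siMED12 replicate 3. NOP58, the partner of NOP56, was 132, 139 and 124 CPM against 104, 99.1 and 109 CPM, without overlap (log2 fold change -0.34, adjusted p 0.128 unblocked and 1.69e-06 blocked).

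In the box H/ACA particle, which converts uridine to pseudouridine and also binds telomerase RNA, the catalytic subunit and its partners NHP2 and GAR1 were separate between the groups, and NOP10 was not. DKC1, the pseudouridine synthase mutated in dyskeratosis congenita (chrX:154762742-154777689, plus strand), was 153, 165 and 149.8 CPM under siCtrl and 113, 103 and 100.03 CPM under siMED12. The groups were separate, and the log2 fold change was -0.56 (SE 0.09, edgeR adjusted p 0.0449 unblocked and 7.03e-12 blocked). NHP2 was 95, 107 and 95.7 CPM against 71.8, 73.6 and 64.9 CPM, again without overlap (log2 fold change -0.50, adjusted p 0.0665 unblocked and 1.23e-09 blocked). GAR1 was 48.2, 44.2 and 36.8 CPM against 33.1, 32.6 and 28.2 CPM (-0.46, adjusted p 0.161 and 3.73e-06). NOP10, the smallest core protein, was 45.2, 45.2 and 45.5 CPM under siCtrl and 45.9, 41.0 and 41.4 CPM under siMED12. The siCtrl libraries were almost level, and siMED12 replicate 1 lay above all of them. The log2 fold change was -0.08 (SE 0.10, edgeR adjusted p 0.771 unblocked and 0.382 blocked).

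The nucleolar scaffold and polymerase I-linked members had the lowest median log2 fold change of the 6 steps, -0.54 over 8 genes. All 8 had siMED12 below siCtrl without overlap and all 8 fell with the block, beside 10.9% and 16.2% of all genes. By edgeR 2, LYAR and MYBBP1A, also fell without it, beside 0.413%. The DESeq2 Wald test called 7 lower, and all 8 were lower at an unadjusted p below 0.05, beside 3.42% and 7.93%. Differences between steps were not tested. LYAR, a zinc finger protein of the nucleolus linked to cell growth (chr4:4267701-4290154, minus strand), was 57.4, 54.2 and 49.7 CPM under siCtrl and 33.4, 28.6 and 25.3 CPM under siMED12. The change was -41.7%, -47.1% and -49.1% in the pairs, with a log2 fold change of -0.88 (SE 0.13, edgeR adjusted p 0.0417 unblocked and 5.92e-13 blocked). MYBBP1A, a nucleolar protein that binds MYB and takes part in rRNA processing (chr17:4538897-4555386, minus strand), was 185, 206 and 180.5 CPM under siCtrl and 119, 117 and 115 CPM under siMED12. The siMED12 libraries were close to one another (SD 2.11 CPM) and far below the lowest siCtrl library. Its log2 fold change was -0.70 (SE 0.09, adjusted p 0.0297 unblocked and 4.47e-15 blocked).

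The other scaffold proteins fell by edgeR with the block and did not pass without it. NCL, nucleolin, the member with the highest level per kilobase, was 1136, 1292 and 1094 CPM under siCtrl and 887, 955 and 849.6 CPM under siMED12. Its groups were separate, and its log2 fold change was -0.39 (adjusted p 0.12 unblocked and 1.8e-11 blocked). NPM1, nucleophosmin, was 273, 288 and 276 CPM against 216, 187 and 209 CPM (-0.45, adjusted p 0.0655 and 1.82e-10), and the annotation names 49 pseudogenes of it that could share reads. NOLC1, a chaperone of small nucleolar particles, was 449.6, 510.0 and 409 CPM against 312, 309 and 296 CPM (-0.58, adjusted p 0.0537 and 4.88e-14). DDX21, an RNA helicase linked to polymerase I transcription and named after its values were seen, had a log2 fold change of -0.63 (adjusted p 0.102 and 1.51e-14). TCOF1, which supports rDNA transcription and is mutated in Treacher Collins syndrome, had -0.51 (adjusted p 0.0655 and 9.76e-12). PA2G4, a growth regulator that binds ribosomal particles, was 304, 363 and 316 CPM against 244, 272 and 262 CPM, with the smallest change of the step at -0.34 (adjusted p 0.154 and 1.98e-08).

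The small-subunit processome, the large particle that forms on the nascent precursor with the U3 snoRNA, had 18 members, and their median log2 fold change was -0.42. By edgeR, 0 fell without the block (14 were lower at an unadjusted p below 0.05, and 5 by the DESeq2 Wald test), 16 did with it, and 12 did not overlap between the groups. Over all genes the shares were 0.413% without the block (7.93% unadjusted, 3.42% by DESeq2), 16.2% with it and 10.9% without overlap. RRP9, the U3-specific protein, was 37.3, 43 and 50.1 CPM under siCtrl and 22.5, 27.0 and 27.0 CPM under siMED12. The lowest siCtrl library was above every siMED12 library, and the pairs changed by -39.6%, -37.3% and -46.2%. Its log2 fold change of -0.77 (SE 0.15) reached adjusted p-values of 0.0630 unblocked and 1.84e-10 blocked by edgeR. IMP4, which helps the U3 snoRNA pair with the precursor, was 83.4, 81.3 and 68.1 CPM against 49.1, 53.1 and 49.4 CPM, without overlap (-0.62, adjusted p 0.0562 and 2e-10). DDX52, an RNA helicase, was 47.5, 48.4 and 42.9 CPM against 44.1, 45.5 and 38.6 CPM. Its groups overlapped, and the log2 fold change of -0.11 reached adjusted p-values of 0.703 unblocked and 0.194 blocked by edgeR. When the blocked fit also corrected for GC content and length, it was -0.23 (adjusted p 0.00666), and without the block it was -0.05 without siMED12 replicate 3 and -0.18 without siMED12 replicate 2. UTP15 (-0.19, adjusted p 0.0541 with the block), a protein of the early UTP-A subcomplex, was the other processome member outside the blocked count, and NOC4L had the same log2 fold change of -0.19 with an adjusted p of 0.0317. With the GC and length correction these calls changed places, at adjusted p-values of 0.00247 for UTP15 and 0.213 for NOC4L. The remaining 13 members lay between -0.56 (BYSL) and -0.32 (EMG1).

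Other processome members, chosen after their values were seen, showed how the replicate numbers ran through the step. HEATR1, a large scaffold of the UTP-A subcomplex that is also needed for polymerase I transcription, was 147, 142 and 117 CPM under siCtrl and 111, 104 and 93.1 CPM under siMED12. Replicate 3 was the lowest of each group, and the groups did not overlap (log2 fold change -0.40, adjusted p 0.161 unblocked and 2.21e-08 blocked). WDR43, of the same subcomplex, was 123, 114 and 79.1 CPM against 95.3, 75.8 and 64.2 CPM. Here siCtrl replicate 3 lay below siMED12 replicate 1, so the groups overlapped, although each pair was lower, at -22.7%, -33.7% and -18.9% (-0.43, adjusted p 0.338 and 7.52e-08). UTP20, a long repeat protein of the processome, overlapped in the same way, at 131, 126 and 95.3 CPM against 99.1, 86.4 and 77.7 CPM. NAT10, the cytidine acetyltransferase of 18S rRNA, was 105, 108 and 89.8 CPM against 79.7, 76.2 and 73.5 CPM, without overlap (-0.40, adjusted p 0.12 and 1.83e-07). EMG1, a methyltransferase that acts on a pseudouridine of 18S rRNA, was 38.7, 36.6 and 35.6 CPM against 33.6, 30.4 and 25.1 CPM. Its groups were separate too, with a log2 fold change of -0.32 (adjusted p 0.31 and 0.00122).

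Late small-subunit factors, which accompany the particle to the cytoplasm and complete the end of 18S rRNA, all fell with the block (5 of 5), and 0 passed edgeR without it (4 were lower at an unadjusted p below 0.05, and 2 by the DESeq2 Wald test). The groups did not overlap in any of the 5, beside 10.9% of all genes, and the median log2 fold change of the step was -0.38. Of all genes, 16.2% fell with the block and 0.413% without it, 7.93% at an unadjusted p below 0.05 and 3.42% by DESeq2. RIOK1, a kinase of the last maturation steps, was 56.8, 54.3 and 49.1 CPM under siCtrl and 42.4, 39.3 and 34.1 CPM under siMED12 (-0.47, adjusted p 0.122 unblocked and 4.03e-07 blocked). TSR1, a GTPase-like protein of the late particle, was 173, 191 and 153 CPM against 133, 137 and 119.99 CPM (-0.41, adjusted p 0.128 and 3.42e-09). NOB1, the endonuclease that makes the final 18S cut, was 55.9, 63.3 and 47.9 CPM against 43.8, 46.6 and 41.7 CPM (-0.34, adjusted p 0.244 and 9.72e-05). LTV1, an export and maturation factor, was 24.7, 23.0 and 18.5 CPM against 17.2, 18.4 and 17.8 CPM. The siMED12 libraries were close to one another and siCtrl replicate 3 was only just above them, so the pairs differed, at -30.6%, -20.3% and -4.07% (log2 fold change -0.31, adjusted p 0.361 unblocked and 0.0138 blocked).

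Large-subunit assembly was the largest step, with 20 members whose median log2 fold change was -0.41. By edgeR, BOP1 and NOP16 fell without the block, 19 members did with it, and 13 did not overlap, beside 0.413%, 16.2% and 10.9% of all genes. At an unadjusted p below 0.05, 13 were lower, and 10 by the DESeq2 Wald test, beside 7.93% and 3.42%. BOP1 forms the PeBoW complex with PES1 and WDR12, which acts in maturation of 5.8S and 28S rRNA. BOP1 was 107, 134 and 119 CPM under siCtrl and 67.3, 78.2 and 69.9 CPM under siMED12. All siMED12 libraries were far below the lowest siCtrl library, and the log2 fold change was -0.74 (SE 0.11, edgeR adjusted p 0.0417 unblocked and 1.28e-14 blocked). PES1 was 112, 138 and 119 CPM against 93.1, 93.6 and 86.9 CPM (-0.43, adjusted p 0.109 and 2.82e-08), and WDR12 was 92.6, 91.1 and 79.0 CPM against 68.8, 69.5 and 65.0 CPM (-0.37, adjusted p 0.132 and 1.21e-06). The 3 subunits thus changed by different amounts in point estimate, a difference that was not tested.

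NOP16, a factor of early large-subunit particles (chr5:176383946-176388927, minus strand), was 79.0, 79.4 and 73.0 CPM under siCtrl and 49.4, 49.3 and 44 CPM under siMED12. The groups were separate and the pairs were alike, at -37.5%, -38.0% and -39.7%. The log2 fold change was -0.70 (SE 0.10, edgeR adjusted p 0.0364 unblocked and 2.78e-12 blocked). LAS1L, which takes part in cutting the second internal spacer, was 69.4, 72.7 and 68.5 CPM against 60.6, 68.6 and 55.2 CPM. Its siMED12 replicate 2 was just above the lowest siCtrl library, and the log2 fold change was -0.19 (adjusted p 0.45 unblocked and 0.00936 blocked, and unblocked -0.12 without siMED12 replicate 3 and -0.30 without siMED12 replicate 2). NOP2, a methyltransferase of 28S rRNA named after its values were seen, was 1.90, 3.29 and 8.11 CPM under siCtrl and 1.37, 2.34 and 5.57 CPM under siMED12. It differed more between replicates than between groups, while the pairs were alike at -28.2%, -28.9% and -31.3% (estimate -0.52 on the log2 scale, SE 0.62, adjusted p 0.763 unblocked and 0.0678 blocked). Its unblocked direction rested on 1 library: the log2 fold change was 0.25 without siCtrl replicate 3, against -1.25 without siMED12 replicate 3. Of its exonic bases, 54.4% are shared with another annotated gene on the same strand, ENSG00000285238, so its count is uncertain where reads could belong to either.

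The other 14 large-subunit members lay between -0.58 (PPAN) and -0.22 (DDX56), and all 14 fell with the block. Those described next were chosen after their values were seen. RRS1, which brings the 5S particle into the large subunit, was 57.1, 56.7 and 46.6 CPM under siCtrl and 40.7, 36.7 and 30.4 CPM under siMED12, without overlap (-0.57, adjusted p 0.114 unblocked and 9.27e-09 blocked). GNL3, nucleostemin, a GTPase of dividing and stem cells, was 149, 175 and 167 CPM against 111, 121 and 135 CPM, again without overlap (-0.42, adjusted p 0.118 and 4.1e-09). RRP1B, a nucleolar protein of the RRP1 family, was 113, 120.1 and 79.8 CPM against 79.5, 80.1 and 66.9 CPM. The overlap was narrow, with siMED12 replicate 2 just above siCtrl replicate 3 (-0.46, adjusted p 0.21 and 3e-08). DDX56, an RNA helicase, was 174, 178 and 221 CPM against 154, 155 and 182 CPM. It had replicate 3 as the highest of each group, unlike most members, and siMED12 replicate 3 lay above siCtrl replicates 1 and 2 (-0.22, adjusted p 0.435 and 0.000112). DDX18, a helicase of early large-subunit particles, was 62.9, 70.9 and 55.2 CPM against 54.5, 51.5 and 51.5 CPM, so that siCtrl replicate 3 was only just above the siMED12 libraries (-0.26, adjusted p 0.324 and 0.00175).

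**Figure D3:**
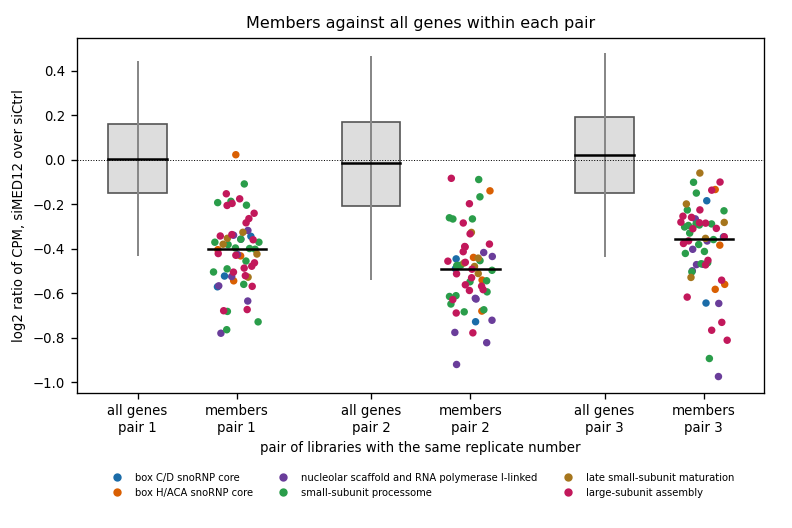
Log2 ratio of siMED12 to siCtrl CPM in the 3 pairs of libraries with the same replicate number. Points are the 58 members; boxes and lines show the middle and outer spread of 10671 genes that average 10 CPM or more and have no zero. Member medians are -0.40, -0.49 and -0.36, against 0.00, -0.01 and 0.02 for those genes.

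Per kilobase of exon, the members' levels in siCtrl covered a wide range. The highest was NCL at 132 CPM per kb, followed by NOLC1 at 115, FBL at 92.1 and PA2G4 at 91.5 CPM per kb, and the lowest were DDX10 at 2.31 and NOP2 at 0.946 CPM per kb. FBL and PA2G4 did not differ beyond the spread of FBL (SD 4.84 CPM per kb). Across the 58 genes, level and log2 fold change had a Spearman rho of -0.23, given as a description, since the genes share libraries and length enters the level.

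**Figure D4:**
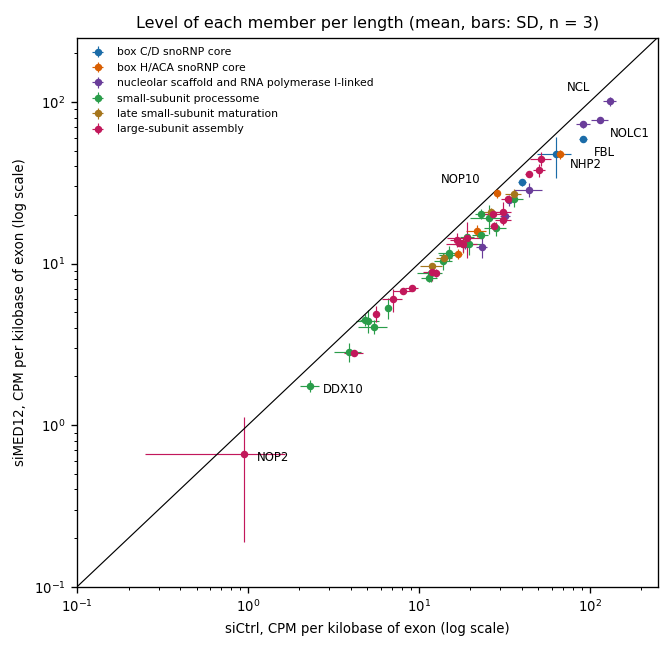
Mean CPM per kilobase of exon of each member in siCtrl (x) and siMED12 (y), both log axes, with SD bars over 3 libraries. All 58 members lie below the line of equality, from NOP2 at 0.946 to NCL at 132 CPM per kb in siCtrl.

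Members differed between replicate numbers as well as between treatments. From replicate 1 to replicate 3 of siCtrl, the log2 ratio had a median of -0.15 over the 58 members, with 40 below 0, and of -0.14 in siMED12, with 42 below 0. In the small-subunit processome the siCtrl median was -0.31, with 16 of 18 below 0. Among the members whose siCtrl ratio went the other way, the highest were NOP2 (2.09), WDR74 (0.70) and NOP56 (0.64), none of them in the processome. In the processome, RRP9 (0.43) and NOC4L (0.10) were above 0. WDR74, a factor that remodels the large-subunit particle, was 61.0, 83.5 and 99.0 CPM under siCtrl and 47.5, 58.5 and 77.9 CPM under siMED12, so that its groups overlapped while each pair was lower. MYC, which is not a member, was 217, 51.7 and 24.3 CPM under siCtrl and 92.5, 21.3 and 13.02 CPM under siMED12. It was lower in each pair, at -57.4%, -58.8% and -46.3%. Its log2 fold change was -1.21 unblocked (edgeR adjusted p 0.586) and -1.18 blocked (adjusted p 3.91e-17). On the log2 scale against siCtrl replicate 1, MYC stood at -2.07 and -3.16 in siCtrl replicates 2 and 3, where the members' median stood at 0.06 and -0.15. In siMED12 the members' median was -0.40, -0.46 and -0.53, beside -1.23, -3.35 and -4.06 for MYC. The part of MYC or of the mitochondrial share in the members' values was not tested.

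**Figure D5:**
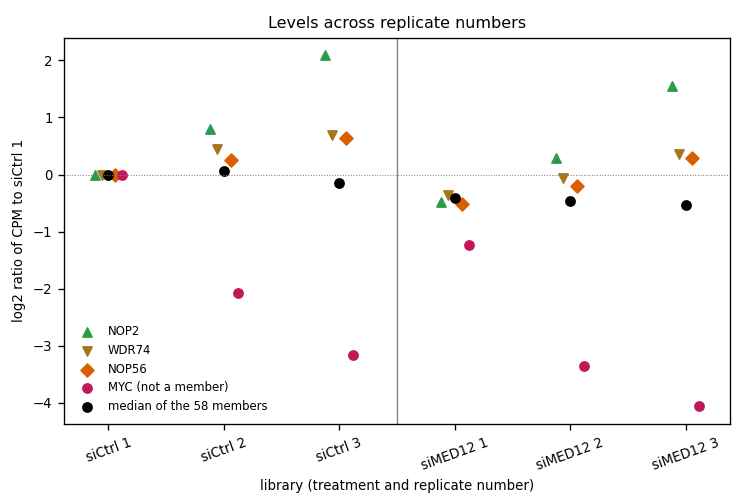
Log2 CPM relative to siCtrl replicate 1 in the 6 libraries, for the median of the 58 members, for NOP2, WDR74 and NOP56, and for MYC. The members' median is 0.06 and -0.15 in the other siCtrl libraries and -0.40 to -0.53 in siMED12, while MYC runs down to -4.06.

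Genes can share exonic bases with neighbours, and it was not stated whether the counting used strand. Of the 58 members, 38 share at most 5% of exonic bases with another gene. Their median log2 fold change was -0.43, with 36 falling with the block and 5 without it, beside 16.2% and 0.413% of all genes. Of the 11 members with over 20% shared, among them EMG1 (66.7%), NOP2, PPAN (49.2%) and NHP2 (28.1%), 10 fell with the block and 0 without it. The median of these 11 was -0.40.

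Other genes of the pathway were counted in the same fits. In 4 lists of other biogenesis factors, 105 of 107 genes were tested, and the median log2 fold change was -0.24 with 95 below 0. None of them passed edgeR without the block in either direction, 37 (35.2%) were lower and 0 higher at an unadjusted p below 0.05, beside 7.93% and 7.65% of all genes, and the DESeq2 Wald test called 14 lower and 0 higher, beside 3.42% and 2.29%. With the block, 66 fell and 0 rose, beside 16.2% and 17.1% of all genes. Other small-subunit factors (41 genes) and other large-subunit factors (40 genes) both had a median of -0.24, with 25 and 29 falling with the block. Small nucleolar particle assembly factors (10 genes) had a median of -0.31 with 7 falling, and the RNA exosome, which trims rRNA precursors (14 genes), a median of -0.13 with 5 falling. CCDC86, named after its values were seen, had the lowest log2 fold change of the 105 at -0.70 (adjusted p 0.0628 unblocked and 4.35e-12 blocked).

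Ribosomal proteins, which these factors place on the rRNA, and RNA polymerase I, which makes it, are given for comparison. For the 83 cytosolic ribosomal protein genes the median log2 fold change was -0.18, and all 83 lay below 0. With the block 59 fell and 0 rose, beside 16.2% and 17.1% of all genes. Without it 0 were called, and 9 (10.8%) were lower and 0 higher at an unadjusted p below 0.05, beside 7.93% and 7.65%. Their groups were separate in 12 of 83 (14.5%), beside 10.9% of all genes. The unadjusted and separation shares were thus near the background. In 76 of 83, siMED12 was lower in all 3 pairs, beside 27.0% of all genes. The 12 RNA polymerase I subunits and factors had a median of -0.22, with 7 falling and 1 rising with the block, beside 16.2% and 17.1% of all genes. Without it 0 were called, and 3 (25.0%) were lower and 0 higher at an unadjusted p below 0.05. All siMED12 libraries lay below all siCtrl libraries in 4 of them (33.3%), beside 10.9% of all genes. From replicate 1 to replicate 3 of siCtrl, the ribosomal protein genes had a median log2 ratio of 0.17 with 5 of 83 below 0, the opposite sign to the members. Differences between these lists were not tested.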

How the data were processed

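The data were 6 RNA-seq libraries of 22Rv1 cells, whose labels give the group and replicate number. Strand-specific poly(A) libraries were sequenced by a service provider. The authors aligned and counted reads with Rsubread (version not given in the sources used here) on GRCh38.p13 with Gencode 43. Whether strand was used in counting and how reads with several matches were treated is not stated. The deposited counts are raw reads per gene, and the deposited log2 CPM values, written with decimal commas, were matched to within 4.96e-09 by values recomputed from them (prior count 2).

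The members and lists were chosen with earlier results of these data known. The expression filter of edgeR kept 17901 of 62703 genes, which were scaled by TMM and tested with edgeR 4.0.16 in R 4.3.3 (quasi-likelihood F-test, treatment only, two-sided, Benjamini-Hochberg adjustment over all genes tested, threshold 0.05). The procedure was run on simulated data, where the unblocked fit met no differences between replicate numbers. That simulation therefore does not cover the unblocked fit where such differences exist. The F statistic and the fold change gave each SE. Deviations of log2 CPM from the group means correlated at 0.532, 0.373 and 0.643 across genes within a replicate number and at -0.460 to -0.0233 otherwise, so the numbers were taken to pair the libraries, and the fit with the number as a block is given beside the other. No replicates of a group were duplicates (chi-square per degree of freedom 11.2 to 45.9).

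Named members were those with an adjusted p below 0.05 or a log2 fold change above 0 without the block, in each step the 2 lowest and 1 highest by log2 fold change, and 14 listed core factors, and other biogenesis factors with an adjusted p below 0.05, which none had. Other names were chosen after their values were seen. Gene positions came from Gencode 44 on GRCh38, and start regions from RefSeq on GRCh38.p14. Alternatives were other scalings and filters, the DESeq2 Wald test (1.42.0), limma-trend (3.58.1) on log2 CPM, a loess correction for GC content and length (span 0.5) and leaving out libraries.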

Additional observations from a re-analysis of the deposited data

How the results depend on the processing

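The number of members lower in siMED12, 6 in the unblocked edgeR fit, depended on how the replicate numbers were handled. It was 54 with the replicate block, 52 with the block and library size only, 55 with the block and a GC and length correction, and, in alternatives chosen after seeing the data, 55 with the block and DESeq2 size factors and 51 to 53 with the block when 1 replicate number was left out. Without the block it was 3 with library size only, 16 with no filter beyond 1 count and 28 by the DESeq2 Wald test, and 0 to 2 when 1 library was left out. Of those 6 fits, 4 called 0 genes in either direction among the genes that passed the filter when it was applied again. Over all genes, 74 lower and 27 higher became 49 and 31 under library size alone, 493 and 331 by the DESeq2 Wald test, and 290 and 186 when the filter was dropped. With library size only, the blocked fit called 2413 genes lower and 3807 higher among all genes, against 2908 and 3058 with TMM, and called 3372 lower and 2526 higher with the GC and length correction. With DESeq2 size factors the blocked fit called 3069 genes lower and 2960 higher. When 1 replicate number was left out, it called 2578 to 2654 lower and 2070 to 2375 higher. No member was called higher under any of these alternatives, and the members' median log2 fold change kept its sign in all of them. The log2 fold change of NOP2, which is not among the 25 members named by rule, turned to 0.25 without siCtrl replicate 3. Among the 25 named members, none of 475 values under the alternatives changed sign, 300 stayed on the same side of the threshold, 137 passed it only under the alternative and 38 no longer passed it. The log2 fold change of MED12 lay between -1.90 and -1.45 when 1 library was left out, and its adjusted p passed the threshold no longer without siCtrl replicate 1 (0.0818), siCtrl replicate 2 (0.186), siMED12 replicate 1 (0.108) or siMED12 replicate 2 (0.130). The cause of these differences was not tested. The common dispersion was 0.0368 in the unblocked fit and 0.00228 with the block.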
